A study of Mus musculus with 22 samples.

Results

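The 10 genes described here are Glul, Oat, Slc1a2, Rgn, Cyp2e1, Lect2, Axin2, Lgr5, Rnf43 and Tbx3, which mouse liver expresses most strongly in hepatocytes around the central vein under Wnt signalling. They were taken by gene symbol, as 10 of the 53392 rows of the count table, and all 10 were among the 15928 genes with enough counts to be tested. RNA sequencing covered whole liver of 22 female C57BL/6 mice, 1 library per mouse. There were 5 germ-free pregnant, 6 germ-free non-pregnant, 5 conventional pregnant and 6 conventional non-pregnant animals, where germ-free means raised without microorganisms and conventional means carrying an ordinary microbiota. Pregnant livers are labelled as gestation day 15, a day that was assumed in germ-free mice because their matings ran over several nights. The age labels, whose unit is not stated, were 91 to 121 in germ-free and 70 to 77 in conventional mice and did not overlap. No genotype or other agent is named, and the diet, water and bedding were the same for both kinds of mice. Libraries held 18064306 to 30036672 counts. Levels are in CPM, counts divided by the scaled size of each library, given as mean ± SD, and changes are log2 ratios ± SE from 1 edgeR quasi-likelihood fit of all 22 libraries, with Benjamini-Hochberg adjustment over all genes tested and a call at an adjusted p under 0.05.

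Hepatocytes along the liver lobule divide their tasks between the portal and the central end. Endothelial cells of the central vein secrete Wnt2, Wnt9b and the R-spondin Rspo3. Wnt binding to Frizzled receptors and their LRP co-receptors keeps beta-catenin from destruction, and beta-catenin with TCF factors then turns on the pericentral programme. That programme includes glutamine synthesis from ammonia that escaped the periportal urea cycle, and oxidation of drugs and alcohol. Axin2 and Rnf43 belong to the feedback that restrains the pathway, whereas Lgr5 binds R-spondins and strengthens it.

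TCF and LEF factors recognise a core written CTTTGAT on one strand and ATCAAAG on the other. The 250 bases before the start site were searched on both strands in the RefSeq promoter table (GRCm38.p6), which holds 7 of the 10 genes. Lect2 and Slc1a2 had a match, Glul, Oat, Cyp2e1, Rnf43 and Axin2 had none, and Lgr5, Tbx3 and Rgn were not in the table. Of all 32851 start sites in the table, 1053 (3.21%) held the core. The 4 sequences below are of Lect2 and Slc1a2, which had a match, and of Glul and Axin2, which had none in this window. Glul and Axin2 are textbook targets of the pathway. All 4 were picked with their changes in pregnancy known, and whether the core bears on those changes was not tested. The sequences are written 5′ to 3′ on the strand of the gene, and capitals mark the core.
Lect2: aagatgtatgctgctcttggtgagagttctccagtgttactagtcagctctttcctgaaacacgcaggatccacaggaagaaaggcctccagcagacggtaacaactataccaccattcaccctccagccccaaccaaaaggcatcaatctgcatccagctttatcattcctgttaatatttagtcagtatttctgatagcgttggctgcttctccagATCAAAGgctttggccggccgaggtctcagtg
Slc1a2: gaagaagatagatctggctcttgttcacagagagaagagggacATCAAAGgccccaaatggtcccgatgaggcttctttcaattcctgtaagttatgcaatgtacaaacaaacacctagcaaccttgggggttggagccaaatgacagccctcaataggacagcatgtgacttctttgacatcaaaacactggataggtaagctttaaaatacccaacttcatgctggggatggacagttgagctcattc
Glul: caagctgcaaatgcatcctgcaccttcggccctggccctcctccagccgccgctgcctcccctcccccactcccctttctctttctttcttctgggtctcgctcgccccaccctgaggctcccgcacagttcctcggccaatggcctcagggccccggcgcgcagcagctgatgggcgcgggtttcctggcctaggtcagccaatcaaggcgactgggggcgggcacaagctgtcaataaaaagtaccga
Axin2: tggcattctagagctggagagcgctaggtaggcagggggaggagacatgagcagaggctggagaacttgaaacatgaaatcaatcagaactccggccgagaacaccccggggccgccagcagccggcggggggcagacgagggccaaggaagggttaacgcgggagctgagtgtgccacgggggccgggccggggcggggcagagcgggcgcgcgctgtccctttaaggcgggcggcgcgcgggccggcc
The Lect2 window is chr13:56548539-56548788 on the minus strand, and its core begins 32 bases before the start. The Slc1a2 window is chr2:102706188-102706437 on the plus strand, with the core beginning 207 bases before the start. That start is an internal one, because the window lies inside the gene, which spans 102658659 to 102790784. No window before the first base of Slc1a2 was searched. The same holds for Rnf43, which spans 87662722 to 87735539. Its windows, chr11:87662837-87663086 and chr11:87699647-87699896, lie inside the gene. The Cyp2e1 window, chr7:140763569-140763818, runs past the first base of that gene, 140763739. The Glul window is chr1:153899679-153899928 and the Axin2 window chr11:108920099-108920348, both on the plus strand. A match describes letters and not a bound site, and its absence concerns only this window.

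Compared per kilobase of exon in conventional non-pregnant livers, the levels ran over more than 3 orders of magnitude. Cyp2e1, a P450 that oxidises ethanol and small solvents, stood at 2094.3 ± 178.6 CPM per kb, and Rgn, the calcium-binding gluconolactonase regucalcin, at 929.1 ± 147.9 CPM per kb. Oat, ornithine aminotransferase, had 364.7 ± 67.7 and Glul, glutamine synthetase, had 342.6 ± 62.5 CPM per kb, a gap smaller than either SD. Lect2, a secreted hepatocyte protein, followed at 151.3 ± 26.1 CPM per kb. Slc1a2, a glutamate transporter, had 10.5 ± 1.49 CPM per kb, and the transcription factor Tbx3 had 5.36 ± 1.02 CPM per kb. Rnf43, a ubiquitin ligase that removes Frizzled receptors, had 2.99 ± 0.516, the scaffold protein Axin2 1.02 ± 0.235 and Lgr5 0.499 ± 0.111 CPM per kb. Single libraries held 18 to 172 Lgr5 counts and 40 to 223 Axin2 counts.

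In GENCODE M21 (GRCm38), Glul (ENSMUSG00000026473.15) lies on chromosome 1 at 153899944 to 153909723 and Oat (ENSMUSG00000030934.9) on chromosome 7 at 132557478 to 132576398. Slc1a2 (ENSMUSG00000005089.15) spans 102658659 to 102790784 of chromosome 2, Rgn (ENSMUSG00000023070.6) 20549787 to 20562089 of chromosome X, and Cyp2e1 (ENSMUSG00000025479.9) 140763739 to 140774987 of chromosome 7. Lect2 (ENSMUSG00000021539.9) is on chromosome 13 at 56542464 to 56548502, and Axin2 (ENSMUSG00000000142.15) on chromosome 11 at 108920349 to 108950783. Lgr5 (ENSMUSG00000020140.15) occupies 115450311 to 115587780 of chromosome 10, Rnf43 (ENSMUSG00000034177.15) 87662722 to 87735539 of chromosome 11, and Tbx3 (ENSMUSG00000018604.18) 119670669 to 119684724 of chromosome 5. All 10 are protein-coding, and the values are sums over their exons. Tbx3 overlaps its antisense gene Tbx3os1, which held 2646 counts over all libraries beside 17559 for Tbx3, and reads from the overlap cannot be told apart without strand. The antisense partners of Slc1a2 and Axin2 held 34 and 22 counts, beside 102243 and 2290 counts for the genes themselves. Rnf43 and Oat each overlap a gene on the same strand. These are 1110028F11Rik with 700 counts beside 8933 for Rnf43, and Fgfr2 with 15536 counts beside 384926 for Oat.

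A few libraries stood apart. Conventional pregnant replicate 2 was the lowest of its 5 libraries for 10 of the 10 genes, against 28.4% of all genes tested, and also for 20 of 30 other pericentral genes and 17 of 25 periportal genes. It held 2048.9 CPM of Saa1 and 2155.9 CPM of Saa2, acute phase genes whose highest values elsewhere were 62.2 and 43.5 CPM. Its summed markers of Kupffer cells (1595.1 CPM), neutrophils (56.4 CPM), proliferation (203.1 CPM) and the acute phase (22218.7 CPM) were the highest of all. Germ-free non-pregnant replicate 2 was lowest of its 6 libraries for 8 of the 10 genes (25.6% of all genes) and for 20 of 30 other pericentral genes. Yet it was highest for 15 of 25 periportal genes (23.3% of all genes) and for Oat. Germ-free pregnant replicate 2 showed a like arrangement, lowest for 5 of the 10 genes and 15 of 30 other pericentral genes (20.0% of all genes). It was highest for 19 of 25 periportal genes (19.9% of all genes). Whether these livers differed in state or in the piece sampled was not tested, and in bulk tissue fewer pericentral cells and less RNA per cell cannot be told apart.

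**Figure D1:**
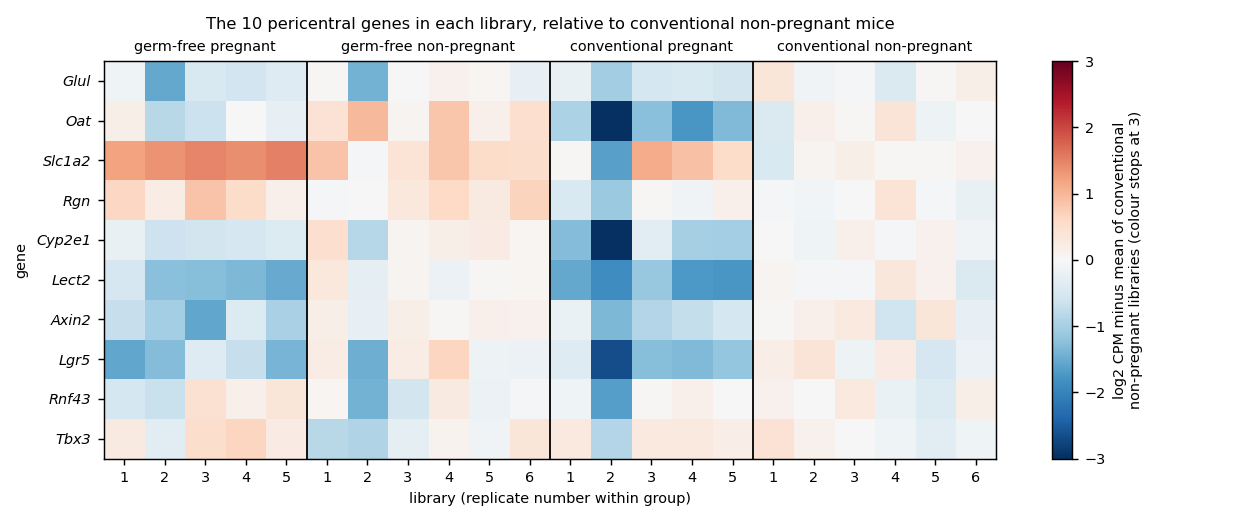
Each column is 1 library, grouped as labelled, and each row 1 gene; colour shows log2 CPM minus the mean log2 CPM of the conventional non-pregnant libraries and stops at 3. Lect2 is blue in both pregnant groups, Slc1a2 is red in all 5 germ-free pregnant libraries, and conventional pregnant replicate 2 is the lowest of its group for all 10 genes.

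Part of the pericentral set was lower in pregnancy. Lect2 and Axin2 fell in both kinds of mice, and Oat, Cyp2e1 and Lgr5 fell in conventional mice. In germ-free mice 0 of the 10 genes were called higher and 2 lower, where 7.15% of all genes were called higher and 3.6% lower (10.8% in either direction). In conventional mice 0 were called higher and 5 lower, where 5.49% of all genes were called higher and 3.52% lower (9.02% in either direction). The median log2 change of the 10 genes was -0.46 in germ-free and -0.64 in conventional mice, against -0.02 and 0.04 over all genes tested. Without conventional pregnant replicate 2, 1 gene was called higher and 4 lower in germ-free mice, and 1 higher and 3 lower in conventional mice, with medians of -0.46 and -0.53. In that fit 1283 of all 16155 genes tested were called higher and 716 lower in germ-free mice, and 669 higher and 377 lower in conventional mice. With all libraries the counts over 15928 genes were 1139 higher and 574 lower in germ-free mice, and 875 higher and 561 lower in conventional mice. Groups that did not overlap were found for Lect2 and Axin2 (lower) and Slc1a2 (higher) in germ-free mice, where 2.81% of all genes were lower and 5.66% higher without overlap. In conventional mice Oat, Cyp2e1 and Lect2 were lower without overlap, as were 2.39% of all genes, and 2.57% were higher.

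**Figure D2:**
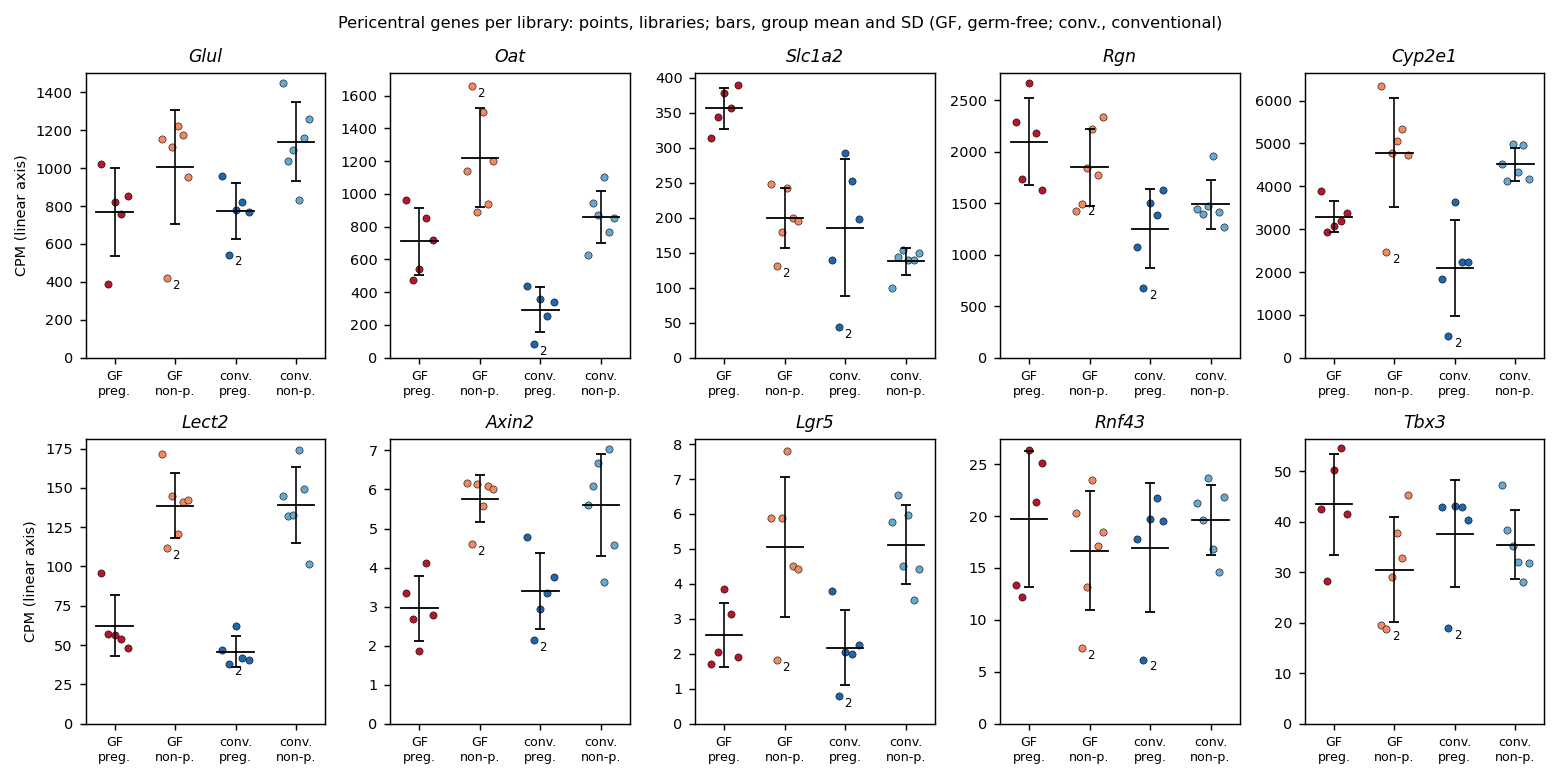
CPM of each gene on a linear axis in germ-free pregnant, germ-free non-pregnant, conventional pregnant and conventional non-pregnant livers; points are libraries and bars the group mean and SD. Points marked 2 are replicate 2 of the germ-free non-pregnant and of the conventional pregnant group. Lect2 separates pregnant from non-pregnant livers in both kinds of mice.

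Lect2, which the liver secretes into blood, gave the most even response. In germ-free pregnant livers it stood at 96.1, 57.3, 56.6, 54.0 and 48.2 CPM, against 111.8 to 171.4 CPM (median 141.6) in the 6 germ-free non-pregnant livers. In conventional pregnant livers it stood at 47.1, 37.9, 62.2, 41.8 and 40.6 CPM, against 101.4 to 174.1 CPM (median 138.7) in conventional non-pregnant livers. Every pregnant liver was below every non-pregnant liver of its kind, and germ-free pregnant replicate 1 was the nearest to them. The log2 change was -1.15 ± 0.18 in germ-free mice (edgeR adjusted p = 0.000108) and -1.60 ± 0.18 in conventional mice (adjusted p = 2.52e-06), which is 2.22-fold and 3.03-fold lower. Both calls held whichever of the 22 libraries was omitted. Its promoter, printed above, holds the TCF core 32 bases before the start site, and a link between the core and the fall was not tested.

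Among the nitrogen-handling genes, Oat fell in conventional pregnancy, and Glul and Slc1a2 were not called in either kind of mice. Oat moves the amino group of ornithine to form glutamate. It stood at 960.2, 476.2, 539.6, 852.1 and 720.0 CPM in germ-free pregnant livers, against 892.4 to 1657.7 CPM (median 1171.4) in germ-free non-pregnant livers. It stood at 437.7, 82.3, 356.0, 253.6 and 339.9 CPM in conventional pregnant livers, against 628.1 to 1100.8 CPM (median 860.3) in conventional non-pregnant livers. The germ-free groups met at their edges and the conventional groups did not. Oat fell by 1.55 ± 0.30 on the log2 scale in conventional mice (edgeR adjusted p = 0.00145), or by 1.31 without replicate 2 of the pregnant group (adjusted p = 0.000637). In germ-free mice its change of -0.78 ± 0.29 did not pass (adjusted p = 0.0904). DESeq2 did call Oat there (adjusted p = 0.0352), as did a fit of the germ-free groups alone (-0.80, adjusted p = 0.0276) and the edgeR fit without conventional pregnant replicate 2 (adjusted p = 0.0141).

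Glul makes glutamine from glutamate and ammonia in the last hepatocytes before the central vein. Germ-free pregnant livers had 1022.8, 388.4, 820.7, 758.2 and 851.8 CPM, against 418.9 to 1222.0 CPM (median 1130.2) in germ-free non-pregnant livers. Conventional pregnant livers had 958.5, 543.7, 777.3, 819.5 and 767.3 CPM, against 833.3 to 1447.4 CPM (median 1127.3) in conventional non-pregnant livers. The groups overlapped in both kinds of mice, and replicate 2 of both germ-free groups lay well under its companions. The log2 changes, -0.39 ± 0.25 (edgeR adjusted p = 0.357) in germ-free and -0.56 ± 0.25 (adjusted p = 0.176) in conventional mice, did not pass the test in any of 22 fits that left out 1 library.

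Slc1a2, which takes up glutamate, had the highest log2 change of the 10 genes in germ-free pregnancy. Germ-free pregnant livers held 314.4, 344.3, 378.0, 356.0 and 389.1 CPM, against 131.0 to 247.5 CPM (median 197.3) in germ-free non-pregnant livers. Conventional pregnant livers held 140.0, 43.9, 292.9, 252.0 and 198.4 CPM, against 99.1 to 153.3 CPM (median 141.6) in conventional non-pregnant livers. The 5 germ-free pregnant libraries were close together, with a coefficient of variation of 8.23%, and all lay above every other library of the series. The conventional pregnant libraries scattered, with a coefficient of variation of 52.7%. The log2 change was 0.84 ± 0.28 in germ-free mice (edgeR adjusted p = 0.057) and 0.43 ± 0.28 in conventional mice (adjusted p = 0.405). Leaving out conventional pregnant replicate 2 turned both into calls, at 0.84 (adjusted p = 0.00208) and 0.68 ± 0.18 (adjusted p = 0.0251). In the germ-free comparison Slc1a2 was also called by DESeq2 (adjusted p = 0.0289), in a fit of the germ-free groups alone (adjusted p = 0.0023) and without conventional pregnant replicate 3 (adjusted p = 0.0458).

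Of the other metabolic genes, Cyp2e1 fell in conventional pregnancy and Rgn did not pass in either comparison. Cyp2e1 stood at 3887.9, 2937.5, 3083.3, 3191.2 and 3375.3 CPM in germ-free pregnant livers, against 2470.9 to 6348.0 CPM (median 4917.9) in germ-free non-pregnant livers. In conventional pregnant livers it stood at 1840.7, 510.4, 3636.6, 2242.4 and 2235.0 CPM, against 4133.8 to 4998.4 CPM (median 4428.6) in conventional non-pregnant livers. The conventional groups did not overlap, and the germ-free groups overlapped through germ-free non-pregnant replicate 2, the lowest of its group. Cyp2e1 fell by 1.11 ± 0.30 on the log2 scale in conventional mice (edgeR adjusted p = 0.0216), or by 0.86 without pregnant replicate 2 (adjusted p = 0.0143), but a fit of the conventional groups alone did not call it (adjusted p = 0.0831). In germ-free mice the change was -0.54 ± 0.30 (adjusted p = 0.28). Rgn, a step of vitamin C synthesis in mouse, stood at 2100.2 ± 421.9 CPM in germ-free pregnant (SD, n = 5) and 1850.7 ± 372.4 CPM in germ-free non-pregnant livers (SD, n = 6). It stood at 1253.9 ± 382.9 CPM in conventional pregnant and 1493.1 ± 237.7 CPM in conventional non-pregnant livers, and both pairs of groups overlapped. The Rgn changes were 0.18 ± 0.20 in germ-free mice (adjusted p = 0.644) and -0.25 ± 0.21 in conventional mice (adjusted p = 0.532).

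Of the genes that regulate Wnt reception, Axin2 fell in both kinds of mice, Lgr5 fell in conventional mice and Rnf43 was not called. Axin2, a scaffold of the complex that destroys beta-catenin and a direct target of the pathway, stood at 3.36, 2.68, 1.86, 4.11 and 2.78 CPM in germ-free pregnant livers, against 4.60 to 6.16 CPM (median 6.06) in germ-free non-pregnant livers. Conventional pregnant livers had 4.77, 2.14, 2.95, 3.34 and 3.76 CPM, against 3.62 to 7.03 CPM (median 5.85) in conventional non-pregnant livers. The germ-free groups were apart and the conventional groups overlapped. Axin2 fell by 0.96 ± 0.22 in germ-free mice (edgeR adjusted p = 0.00448) and fell by 0.72 ± 0.21 in conventional mice (adjusted p = 0.0345), both on the log2 scale. The germ-free call held in 22 of 22 fits that left out 1 library. The conventional call held in 15 of 22, and was lost without any one of pregnant replicates 2, 3 and 4 or non-pregnant replicates 1, 2, 3 and 5 (adjusted p of 0.1, 0.0738, 0.0627, 0.0526, 0.0616, 0.0745 and 0.0862), with changes of -0.73 to -0.60. It was also lost with no filter on low counts (-0.77, adjusted p = 0.0559) and in a fit of the conventional groups alone (-0.75, adjusted p = 0.0811).

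Lgr5, the R-spondin receptor that marks cells with strong Wnt signalling, stood at 1.71, 2.05, 3.86, 3.13 and 1.92 CPM in germ-free pregnant livers, against 1.81 to 7.79 CPM (median 5.20) in germ-free non-pregnant livers. It stood at 3.81, 0.788, 2.06, 1.99 and 2.25 CPM in conventional pregnant livers, against 3.53 to 6.53 CPM (median 5.15) in conventional non-pregnant livers. The germ-free groups overlapped through 1 library, non-pregnant replicate 2, and the conventional groups through pregnant replicate 1 and non-pregnant replicate 5. Lgr5 fell by 1.23 ± 0.34 on the log2 scale in conventional mice (edgeR adjusted p = 0.0231). That call was lost without pregnant replicate 2 (-1.01, adjusted p = 0.0587) or pregnant replicate 4 (-1.20, adjusted p = 0.0502). The germ-free change of -0.99 ± 0.34 did not pass (adjusted p = 0.0617), was called by DESeq2 (adjusted p = 0.0241), and was -1.16 without germ-free non-pregnant replicate 2 (adjusted p = 0.0156). It also passed without germ-free pregnant replicate 3 (adjusted p = 0.0439) or conventional pregnant replicate 1 or 2 (adjusted p of 0.0465 and 0.0298).

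Rnf43 and Tbx3 were not called in either kind of mice. Rnf43 stood at 19.7 ± 6.59 CPM in germ-free pregnant (SD, n = 5) and 16.6 ± 5.73 CPM in germ-free non-pregnant livers (SD, n = 6), and at 17.0 ± 6.21 CPM in conventional pregnant and 19.6 ± 3.38 CPM in conventional non-pregnant livers. Its changes were 0.25 ± 0.28 in germ-free mice (edgeR adjusted p = 0.651) and -0.21 ± 0.28 in conventional mice (adjusted p = 0.742), and the conventional value was 0.00 without pregnant replicate 2. Tbx3, a T-box repressor, stood at 43.5 ± 10.1 CPM in germ-free pregnant and 30.5 ± 10.4 CPM in germ-free non-pregnant livers, and at 37.7 ± 10.6 CPM in conventional pregnant and 35.5 ± 6.78 CPM in conventional non-pregnant livers. The Tbx3 changes were 0.51 ± 0.23 in germ-free mice (adjusted p = 0.172) and 0.08 ± 0.23 in conventional mice (adjusted p = 0.882). For both genes the groups overlapped in each comparison.

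**Figure D3:**
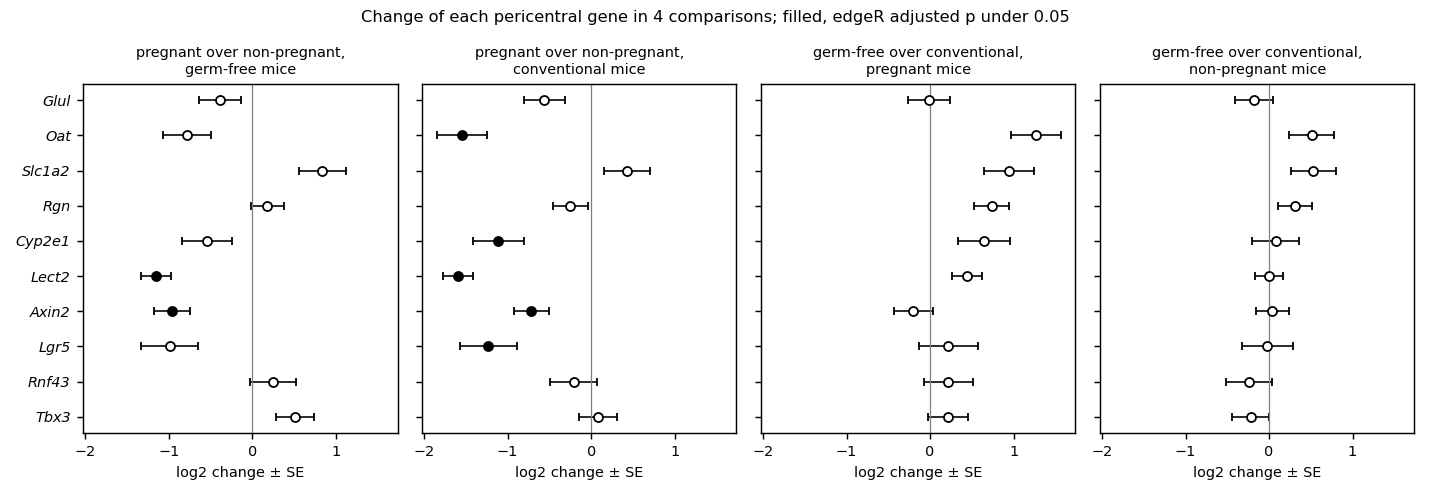
Log2 change ± SE of each gene from the fit of all 22 libraries, pregnant over non-pregnant in germ-free and in conventional mice, then germ-free over conventional in pregnant and in non-pregnant mice; filled points have an edgeR adjusted p under 0.05. Filled points are Lect2 and Axin2 in the first panel and Oat, Cyp2e1, Lect2, Axin2 and Lgr5 in the second, and no point is filled in the last pair.

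Among other genes of the pathway, the receptor genes Lgr4 and Fzd5 rose in both kinds of mice, and Wnt2, Wnt9b and Rspo3 were not called. Of 17 ligands and receptors, 4 rose and 0 fell with pregnancy in germ-free mice (median 0.18), and 2 rose and 0 fell in conventional mice (median -0.19). Of all genes tested, 7.15% rose and 3.6% fell in germ-free mice, and 5.49% rose and 3.52% fell in conventional mice. These shares apply to every list below, and with so few genes per list the counts are a description. Lgr4, the R-spondin receptor related to Lgr5, stood at 131.8 ± 20.3 CPM in germ-free pregnant and 49.1 ± 10.5 CPM in germ-free non-pregnant livers, and at 121.7 ± 18.8 CPM in conventional pregnant and 57.5 ± 7.65 CPM in conventional non-pregnant livers. It rose by 1.43 ± 0.15 in germ-free mice (edgeR adjusted p = 8.22e-07) and by 1.08 ± 0.15 in conventional mice (adjusted p = 4.52e-05), with no overlap between the groups in either. Fzd5, a Frizzled receptor, rose by 0.99 ± 0.19 in germ-free mice (adjusted p = 0.000836) and by 0.95 ± 0.19 in conventional mice (adjusted p = 0.00171). Wnt5a and the co-receptor Lrp5, named after their values were seen because they complete the count, rose by 1.06 ± 0.26 and 1.15 ± 0.25 in germ-free mice. In conventional mice their changes were 0.68 ± 0.25 (edgeR adjusted p = 0.0984) and 0.78 ± 0.25 (adjusted p = 0.0504).

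The ligands of the central vein were at low levels. Wnt2 stood at 2.17 ± 1.06 CPM in germ-free pregnant and 3.73 ± 1.28 CPM in germ-free non-pregnant livers, and at 1.73 ± 0.853 CPM in conventional pregnant and 2.19 ± 0.497 CPM in conventional non-pregnant livers. Its changes were -0.77 ± 0.40 in germ-free mice (edgeR adjusted p = 0.25) and -0.33 ± 0.40 in conventional mice (adjusted p = 0.71). Wnt9b had changes of 0.18 ± 0.41 in germ-free mice (adjusted p = 0.839) and 0.27 ± 0.41 in conventional mice (adjusted p = 0.773). Rspo3 had changes of -0.55 ± 0.21 in germ-free mice (adjusted p = 0.11) and -0.29 ± 0.21 in conventional mice (adjusted p = 0.485). The summed markers of central vein and sinusoid endothelium, 15 genes that include no Wnt ligand, ran from 212.4 to 355.3 CPM in germ-free pregnant, 233.7 to 346.5 CPM in germ-free non-pregnant, 261.2 to 380.0 CPM in conventional pregnant and 253.8 to 349.8 CPM in conventional non-pregnant livers. Of these markers, 2 rose and 0 fell in germ-free mice and 0 were called in conventional mice, and none was at 0 in a whole group.

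Downstream of the receptors, 2 of 16 genes of the destruction complex and transcription rose and 2 fell in germ-free mice (median 0.00), and 1 rose and 1 fell in conventional mice (median 0.07). The all-gene shares were 7.15% higher and 3.6% lower in germ-free mice, and 5.49% higher and 3.52% lower in conventional mice. Bcl9, a co-activator of beta-catenin, rose by 0.67 ± 0.19 in germ-free mice (edgeR adjusted p = 0.0199) and by 0.76 ± 0.19 in conventional mice (adjusted p = 0.0109). Its relative Bcl9l fell by 0.63 ± 0.16 in germ-free mice (adjusted p = 0.0112). Bcl9l also fell by 0.62 ± 0.16 in conventional mice (adjusted p = 0.0157), a call lost without pregnant replicate 2 (adjusted p = 0.0515). In germ-free mice the kinase gene Gsk3b rose by 0.47 ± 0.13 and Pygo2, a partner of Bcl9, fell by 0.42 ± 0.12. Ctnnb1, which encodes beta-catenin, had changes of 0.16 ± 0.12 in germ-free and 0.17 ± 0.12 in conventional mice. The changes were -0.05 ± 0.17 in germ-free and -0.12 ± 0.17 in conventional mice for Apc, a scaffold of the complex, and -0.09 ± 0.17 in germ-free and 0.18 ± 0.17 in conventional mice for the TCF factor Tcf7l2, and none of these was called.

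Of 16 listed inhibitors and feedback genes, 11 were tested, and 1 rose and 1 fell in germ-free mice (median 0.16), while 1 rose and 3 fell in conventional mice (median -0.05). Without conventional pregnant replicate 2, 2 rose and 1 fell in germ-free mice, and 0 rose and 2 fell in conventional mice. With all libraries, 7.15% of all genes rose and 3.6% fell in germ-free mice, and 5.49% rose and 3.52% fell in conventional mice. Notum, a secreted enzyme that inactivates Wnt ligands and a feedback target, stood at 18.0 ± 6.36 CPM in germ-free pregnant and 41.9 ± 13.8 CPM in germ-free non-pregnant livers, and at 15.6 ± 7.53 CPM in conventional pregnant and 39.8 ± 3.96 CPM in conventional non-pregnant livers. Notum fell by 1.21 ± 0.32 in germ-free mice (edgeR adjusted p = 0.0147) and fell by 1.35 ± 0.32 in conventional mice (adjusted p = 0.00871), and both calls held whichever library was omitted. Nkd1, a feedback inhibitor that binds Dishevelled, fell by 0.87 ± 0.19 in conventional mice (adjusted p = 0.00482). In germ-free mice the Nkd1 change of -0.35 ± 0.19 was not called (adjusted p = 0.276). Sp5, a target gene named after its values were seen, fell by 1.20 ± 0.37 in conventional mice (adjusted p = 0.0466). Without conventional pregnant replicate 2 only Notum and Nkd1 were called lower there, so Sp5 lost its call. The Sp5 change in germ-free mice was -0.35 ± 0.36 (adjusted p = 0.61). Znrf3, the partner of Rnf43, had changes of 0.12 ± 0.18 in germ-free mice (adjusted p = 0.752) and -0.52 ± 0.18 in conventional mice (adjusted p = 0.078). The co-repressor Tle1 rose by 0.44 ± 0.14 in germ-free mice and lost its call in 8 of 22 fits, and Tle3 rose by 0.52 ± 0.14 in conventional mice and lost its call in 5 of 22, among them the one without pregnant replicate 2 (adjusted p = 0.0623).

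Beyond the 10 genes, 30 other pericentral hepatocyte genes included 1 that rose and 5 that fell in germ-free mice (median -0.48), and 2 that rose and 11 that fell in conventional mice (median -0.66). Without conventional pregnant replicate 2, 2 rose and 7 fell in germ-free mice, and 0 rose and 8 fell in conventional mice. Over all genes and libraries, 7.15% rose and 3.6% fell in germ-free mice, and 5.49% rose and 3.52% fell in conventional mice. Cyp2c50, a P450 whose reads may be shared with close paralogs, had 348.2 ± 42.3 CPM in germ-free pregnant and 774.4 ± 129.8 CPM in germ-free non-pregnant livers, and 180.2 ± 41.2 CPM in conventional pregnant and 747.7 ± 111.0 CPM in conventional non-pregnant livers. Cyp2c50 fell by 1.15 ± 0.17 in germ-free mice (edgeR adjusted p = 5.83e-05) and fell by 2.05 ± 0.18 in conventional mice (adjusted p = 4.32e-08). Its paralog Cyp2c54 fell by 1.37 ± 0.21 in conventional mice, and averaged 330.0 ± 31.3 CPM in germ-free pregnant and 418.2 ± 100.5 CPM in germ-free non-pregnant livers. Tcea3, a transcription elongation factor, fell by 0.97 ± 0.16 in germ-free mice. Conventional livers held 20.3 to 30.9 CPM of Tcea3 when pregnant and 44.4 to 58.1 CPM when non-pregnant. Gulo, the last enzyme of vitamin C synthesis, rose by 0.58 ± 0.18 in germ-free mice and lost its call in 6 of 22 fits that left out 1 library. In conventional mice Gstm3 rose by 1.76 ± 0.49, a value that rested on pregnant replicate 2 (0.56 without it, adjusted p = 0.381). Cldn2, a tight junction gene, rose by 0.82 ± 0.26 and kept its call in 5 of 22 fits, with 0.77 (adjusted p = 0.101) without pregnant replicate 2. Cyp1a2, a P450 for caffeine and aromatic amines, did not pass, with changes of -0.27 ± 0.22 in germ-free mice (adjusted p = 0.501) and -0.65 ± 0.23 in conventional mice (adjusted p = 0.0751).

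Genes of the portal end were also called, in both directions. Of 25 periportal genes, 3 rose and 4 fell in germ-free mice (median -0.17), and 3 rose and 5 fell in conventional mice (median -0.36). Among all genes tested, 7.15% rose and 3.6% fell in germ-free mice, and 5.49% rose and 3.52% fell in conventional mice. Sds, serine dehydratase, fell by 1.77 ± 0.43 in germ-free mice (edgeR adjusted p = 0.00817) and fell by 1.93 ± 0.43 in conventional mice (adjusted p = 0.00553). Aldh1b1, a mitochondrial aldehyde dehydrogenase, rose by 1.94 ± 0.30 in germ-free and by 1.78 ± 0.30 in conventional mice. The apolipoprotein gene Apoa4 rose by 1.32 ± 0.21 in germ-free and by 1.11 ± 0.21 in conventional mice. Hsd17b13, a lipid droplet enzyme, fell by 1.33 ± 0.21 in germ-free mice (adjusted p = 9.81e-05). It averaged 97.2 ± 28.5 CPM in conventional pregnant and 176.1 ± 40.7 CPM in conventional non-pregnant livers. Pigr, the receptor that carries IgA into bile, fell by 0.88 in conventional mice (adjusted p = 0.00414). Germ-free livers averaged 1159.5 ± 165.2 CPM of Pigr when pregnant and 1395.4 ± 323.0 CPM when non-pregnant. Cyp2f2, the P450 that marks portal hepatocytes, was not called, with changes of -0.17 ± 0.21 in germ-free and -0.55 ± 0.21 in conventional mice. Of 24 genes that handle glutamine, glutamate and ammonia, 0 rose and 5 fell in germ-free mice (median -0.17), and 0 rose and 6 fell in conventional mice (median -0.36). Slc38a4, an amino acid transporter, had 240.6 ± 69.5 CPM in germ-free pregnant and 903.9 ± 116.6 CPM in germ-free non-pregnant livers, and 201.3 ± 113.2 CPM in conventional pregnant and 784.9 ± 167.0 CPM in conventional non-pregnant livers. Slc38a4 fell by 1.91 ± 0.27 in germ-free mice and fell by 1.96 ± 0.27 in conventional mice (adjusted p = 4.13e-05 in each). Slc7a2, a carrier of cationic amino acids, fell by 1.20 ± 0.29 in germ-free mice (adjusted p = 0.00774). It averaged 117.1 ± 57.8 CPM in conventional pregnant and 322.9 ± 97.3 CPM in conventional non-pregnant livers. Gpt, alanine aminotransferase, fell by 0.67 ± 0.19 in germ-free mice (adjusted p = 0.022) and fell by 1.00 ± 0.19 in conventional mice (adjusted p = 0.00121).

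**Figure D4:**
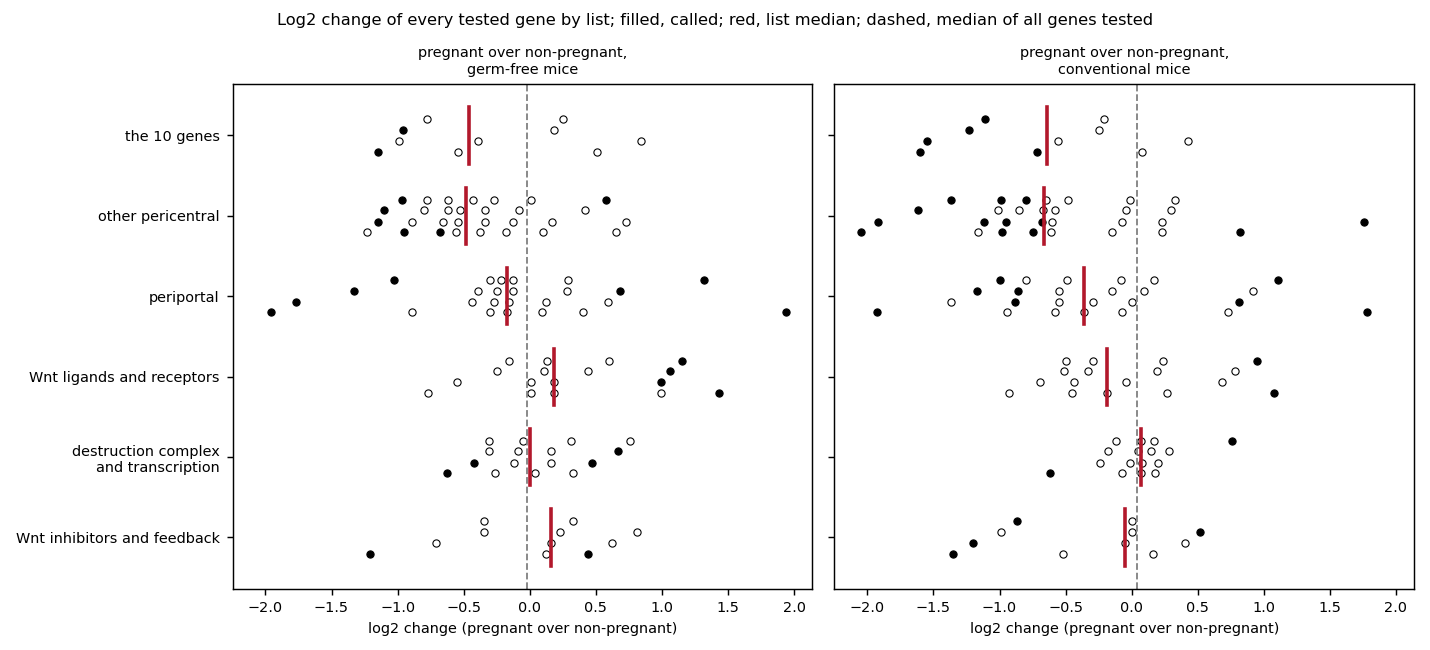
Each point is 1 tested gene of a list, placed at its log2 change for pregnant over non-pregnant livers in germ-free (left) and conventional mice (right); filled points are called, the red bar is the list median and the dashed line the median of all genes tested. The medians of the 10 genes lie at -0.46 and -0.64 and those of the 30 other pericentral genes at -0.48 and -0.66, below the medians of the other lists shown.

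Hepatocyte markers and RNA composition moved with pregnancy as well. The 10 hepatocyte markers, most of which encode secreted plasma proteins, summed to 168148.8 to 260285.3 CPM in germ-free pregnant and 78531.8 to 115764.7 CPM in germ-free non-pregnant livers, and to 108359.6 to 303303.6 CPM in conventional pregnant and 85938.9 to 119002.3 CPM in conventional non-pregnant livers. Of these, 6 rose and 1 fell in germ-free mice, and 2 rose and 1 fell in conventional mice. No hepatocyte marker was at 0 in a whole group. Erythroid markers summed to 1762.5 to 3575.7 CPM in germ-free pregnant, 242.2 to 1771.9 CPM in germ-free non-pregnant, 372.0 to 2254.5 CPM in conventional pregnant and 451.8 to 865.0 CPM in conventional non-pregnant livers, with 7 of 9 tested called higher in germ-free and 2 of 9 in conventional pregnancy. Of 9 acute phase genes, 3 rose in germ-free and 6 in conventional pregnancy, and without conventional pregnant replicate 2 the counts were 7 in germ-free and 1 in conventional pregnancy. Cholangiocyte markers summed to 35.5, 156.1, 27.1, 25.2 and 26.1 CPM in germ-free pregnant livers, against 47.2 to 76.6 CPM (median 59.2) in germ-free non-pregnant livers. They summed to 29.0 to 30.7 CPM in conventional pregnant and 36.4 to 95.2 CPM in conventional non-pregnant livers. Thus 4 of the 5 germ-free pregnant livers and all 5 conventional pregnant livers were below every non-pregnant liver of their kind, and the value of 156.1 CPM, in germ-free pregnant replicate 2, was the highest of the series. Of 7 cholangiocyte markers tested, 1 rose and 1 fell in germ-free pregnancy (median log2 change 1.08), and 0 rose and 1 fell in conventional pregnancy (median -0.73). The lower sums in most germ-free pregnant livers therefore do not describe a fall of the markers in general. Mitochondrially encoded genes took 8.36% to 24.3% of counts in germ-free pregnant, 8.11% to 32.0% in germ-free non-pregnant, 5.9% to 15.7% in conventional pregnant and 8.44% to 23.6% in conventional non-pregnant livers. Their part in the lower levels of the pericentral genes was not tested beyond a fit without the mitochondrially encoded genes, which changed no call among the 10.

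Germ-free status gave no call among the 10 genes. In pregnant mice, germ-free against conventional, 0 were called higher and 0 lower, where 0.0816% of all genes were called higher and 0.0502% lower (0.132% in either direction). An unadjusted p under 0.05 was found for 5 of the 10, as for 10.5% of all genes, and DESeq2 called 2 of them higher. Oat stood at 709.6 ± 204.1 CPM in germ-free pregnant and 293.9 ± 135.2 CPM in conventional pregnant livers (SD, n = 5 each), a log2 change of 1.27 ± 0.30 (edgeR adjusted p = 0.128, DESeq2 adjusted p = 0.00493). Slc1a2 stood at 356.4 ± 29.3 CPM in germ-free pregnant and 185.4 ± 97.8 CPM in conventional pregnant livers, a log2 change of 0.94 ± 0.30 (edgeR adjusted p = 0.27, DESeq2 adjusted p = 0.0957). Rgn had a change of 0.74 ± 0.21 (edgeR adjusted p = 0.223, DESeq2 adjusted p = 0.0402). These 3 genes were higher in every germ-free than in any conventional pregnant liver, as were 0.496% of all genes, with 0.603% lower without overlap. Oat, Slc1a2 and Rgn remained without overlap when conventional pregnant replicate 2 was left out, with changes of 1.03, 0.69 and 0.59. Cyp2e1 had a change of 0.65 ± 0.31 (edgeR adjusted p = 0.464) and Lect2 of 0.44 ± 0.18 (adjusted p = 0.397). Microbiota status cannot be told apart from age here, nor from the difference in how pregnancies were dated.

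In non-pregnant mice, germ-free against conventional, 0 of the 10 were called in either direction, where 0.0879% of all genes were called higher and 0.0691% lower (0.157% in either direction). None of the 10 had an unadjusted p under 0.05, against 957 (6.01%) of all genes, and DESeq2 called none of the 10 among its 117 genes. The changes with the largest size were 0.53 ± 0.27 for Slc1a2 (edgeR adjusted p = 0.84) and 0.51 ± 0.27 for Oat (adjusted p = 0.885). Lect2 averaged 138.7 ± 20.8 CPM in germ-free and 139.1 ± 24.0 CPM in conventional non-pregnant livers, and Axin2 averaged 5.77 ± 0.609 and 5.60 ± 1.30 CPM. All 10 genes overlapped between these groups, and 0.364% of all genes were higher and 0.433% lower without overlap. Of the lists, the other pericentral and the periportal genes held calls in both germ-free comparisons. Apoa4 was lower in germ-free mice, with a log2 change of -1.18 in pregnant (adjusted p = 0.0264) and -1.39 in non-pregnant mice (adjusted p = 0.0018), and Pck1, a gluconeogenic enzyme, was higher by 1.23 in pregnant mice (adjusted p = 0.0315). In pregnant mice Apoa4 kept its call in 15 and Pck1 in 14 of 22 fits that left out 1 library, and both lost it without conventional pregnant replicate 2, at -0.97 for Apoa4 and 1.13 for Pck1 (adjusted p = 0.0805 in each). Sult5a1, a sulfotransferase, was lower in germ-free mice, with a log2 change of -2.41 ± 0.44 in pregnant (adjusted p = 0.0222) and -2.28 ± 0.39 in non-pregnant mice (adjusted p = 0.00973), calls that held in 17 and 22 of 22 such fits. In pregnant mice Cyp2c50 and Cyp2c54 were higher in germ-free livers by 0.95 ± 0.17 and 1.08 ± 0.22, and lost their calls in 6 and 17 of 22 fits. Cyp2c54 was at 0.92 (adjusted p = 0.0805) without conventional pregnant replicate 2.

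The pregnancy change itself was compared between germ-free and conventional mice by the interaction. For 0 of the 10 genes, and for 0 of all genes (0%), did edgeR call a difference. An unadjusted p under 0.05 was found for 904 (5.68%) of all genes and none of the 10, and DESeq2 called 7 genes and none of the 10. The difference for Oat was 0.77 ± 0.41 (edgeR adjusted p = 0.881), for Cyp2e1 0.57 ± 0.42 (adjusted p = 0.894) and for Lect2 0.45 ± 0.25 (adjusted p = 0.883). So the calls for Oat, Cyp2e1 and Lgr5 in conventional but not germ-free mice do not show that the responses differed.

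To find the genes that ran most like 3 of the set, the root mean square difference of centred log2 CPM over the 22 libraries was ranked over the genes with a mean of at least 5 CPM. For Glul the nearest of 9007 were Acaca (0.258), Cyp27a1 (0.281) and Banp (0.286). For Axin2 the nearest of 9008 were D630039A03Rik (0.263), Bcl9l (0.302) and Gba2 (0.312). For Cyp2e1 the nearest of 9007 were Hlf (0.298), Slc37a4 (0.323) and Slc2a2 (0.327). Cyp27a1 is itself among the 30 other pericentral genes. Of the 10 genes, those that were ranked lay farther away, the closest at rank 953 for Glul (Rnf43), rank 558 for Axin2 (Glul) and rank 146 for Cyp2e1 (Lect2). These libraries share groups and depth, and the ranks are a description.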

How the data were processed

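RNA of 22 whole mouse livers was sequenced. The deposited table holds estimated counts per gene, made by the authors with Salmon 0.11.3 and edgeR 3.24.3 on GRCm38.p6, per the submitters' processing notes. The step at which each tool was used is not stated. Rounding to whole numbers changed 0.0083% of counts. GENCODE M21 holds 97.7% of the versioned gene IDs, and 99.93% once versions are ignored. Library totals were 18064306 to 30036672, so the floor of 3 counts is 0.0946 to 0.19 CPM. This floor covers counting error only.

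In R 4.3.3, edgeR 4.0.16 (limma 3.58.1) fitted 1 term per group to all 22 libraries, with TMM scaling and filterByExpr (minimum count 10, minimum total 15), by its quasi-likelihood test. P-values were adjusted by Benjamini-Hochberg over 15928 genes and called under 0.05, and the SE is the size of the log2 change over the square root of F. The fit was tested on simulated data. Log2 CPM for the likeness ranks used a prior count of 2.

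The alternatives were DESeq2 1.42.0, its median-ratio factors, no filter on low counts, no mitochondrially encoded genes, only the groups compared, a replicate block, and leaving out each library. Besides the 10 genes, the text names from each list and comparison the called genes with the smallest adjusted p, up to 2 in each direction, and always Wnt2, Wnt9b, Rspo3, Ctnnb1, Apc, Tcf7l2, Znrf3, Cyp1a2 and Cyp2f2. A gene named for 1 kind of mice may therefore have changed in the other kind too. The 10 genes and all lists were chosen with earlier results of these data known. Groups come from the labels. No label names litters, and no pair of libraries in a group agreed within sampling noise. Promoter sequences are RefSeq's (GRCm38.p6).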

Additional observations from a re-analysis of the deposited data

Results flagged for a closer look

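In 7 of 40 sets of 5 or 6 libraries, 1 per gene and group, a single library lay far from the others by Dixon's test, which chance gives in about 1 of 20 sets. In conventional pregnant replicate 2, Rnf43 was at 6.17 CPM against 17.8 to 21.7 CPM in its companions, and Tbx3 at 18.9 CPM against 40.3 to 43.1 CPM. In germ-free non-pregnant replicate 2, Glul was at 418.9 CPM against 953.1 to 1222.0 CPM, and Axin2 at 4.60 CPM against 5.58 to 6.16 CPM. Germ-free pregnant replicate 1 held 96.1 CPM of Lect2 against 48.2 to 57.3 CPM in its companions. Among conventional non-pregnant livers, replicate 1 held 99.1 CPM of Slc1a2 against 139.4 to 153.3 CPM, and replicate 4 held 1958.1 CPM of Rgn against 1274.9 to 1471.7 CPM.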

How the results depend on the processing

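Of the 10 genes, 3 were called lower in conventional pregnancy when only the groups compared were fitted. In germ-free pregnancy DESeq2 called 1 higher and 4 lower, and the fit of only those groups called 1 higher and 3 lower. In pregnant mice DESeq2 called 2 of the 10 higher in germ-free livers. Leaving out 1 library gave 0 to 1 higher and 3 to 5 lower in conventional pregnancy, and 0 to 1 higher and 2 to 4 lower in germ-free pregnancy. The median-ratio factors, the fit without mitochondrially encoded genes and the replicate block changed no call among the 10.

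Over all genes, conventional pregnancy gave 497 higher with only the groups compared and 896 lower with DESeq2, and 660 to 1134 higher and 377 to 668 lower without 1 library. Germ-free pregnancy gave 876 lower with DESeq2, and 810 to 1322 higher and 384 to 768 lower without 1 library. Germ-free status in pregnant mice gave 64 higher and 44 lower with DESeq2, 20 and 15 with no filter, 2 and 3 with only the groups compared, and 2 to 20 and 2 to 11 without 1 library. In non-pregnant mice it gave 55 higher and 62 lower with DESeq2, 18 lower with no filter and with only the groups compared, 19 lower with the replicate block, and 5 to 21 higher and 5 to 23 lower without 1 library. The interaction gave 2 higher and 5 lower with DESeq2, 1 and 1 with no filter, 1 higher with the replicate block, and 0 to 1 in each direction without 1 library.

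Uncalled changes that turned sign were near 0. For germ-free status in non-pregnant mice, Lect2 was 0.00 with no filter or without mitochondrially encoded genes and 0.01 with only the groups compared. In pregnant mice Glul was 0.01 with DESeq2, the median-ratio factors or no mitochondrially encoded genes. For Apc in germ-free pregnancy the replicate block gave 0.01. Without 1 library, the ranges were -0.13 to 0.16 for Glul (germ-free status, pregnant), -0.06 to 0.11 for Axin2, -0.01 to 0.22 for Cyp2e1, -0.08 to 0.07 for Lect2 and -0.18 to 0.15 for Lgr5 (germ-free status, non-pregnant), -0.31 to 0.00 for Rnf43 (conventional pregnancy), and -0.13 to 0.08 for Apc, -0.17 to 0.04 for Tcf7l2 and -0.01 to 0.33 for Wnt9b (germ-free pregnancy). The cause was not tested.

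The deviations of log2 CPM from each gene's group mean were correlated between same-numbered libraries of the groups compared. These correlations ran from -0.255 to 0.307, and from 0.00444 to 0.147 for pregnancy in germ-free mice. No label ties the replicate numbers of different groups together, so the main fit used no pairing. These correlations cannot exclude it. P-values cover the spread between these libraries. Lgr5 rests on as few as 18 counts in a library and had the largest SE of the 10 genes for pregnancy.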
